A study of Mus musculus with 13 samples.

Results

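Zbtb16, Sox13, Il23r, Il18r1, Scart2, Trdc and Blk are 7 genes of innate-like T cells, out of 57010 genes listed for the series. They were selected on measured values of these cells, as leading genes of a group of innate-like thymocytes in an earlier pass over the same counts. Their levels and their joint detection are therefore given as a description, without a test, and each row was found by its symbol in both deposited gene lists. The cells come from split-pool barcoding with Parse kits, in which cells receive their barcodes in successive wells and the first-round well marks the tissue sample. In the Parse WT (whole transcriptome) kit, the 4 thymic samples were the separated lobes of 2 female C57BL/6N mice aged 2 months, and the 4 thymic samples of the Parse Mini kit came from 2 other young female mice of this strain, each thymus having been divided into 2 technical replicates. The labels give the Mini cells as untreated controls, whereas for the WT library they give thymus and spleen, control and chronic stress together. A further 16 samples shared the WT kit, from young and adult mice, and no label assigns one of these samples to a tissue, an age or a treatment. Lobes and divided samples are technical replicates of a mouse, cells could not be given to mice, and kit and mouse cannot be told apart, so the spread below is that between tissue samples. The 10x Genomics libraries were not analysed here.

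Innate-like T cells leave the thymus with effector programmes already set and respond to cytokines as readily as to antigen. The natural killer T (NKT) lineage carries an alpha-beta receptor and depends on PLZF, the transcription factor encoded by Zbtb16. Gamma-delta T cells that make interleukin-17 form under Sox13, an HMG box transcription factor, carry the receptor delta chain whose constant region is Trdc, and express the scavenger receptor Scart2 and the Src family kinase Blk, which is otherwise a kinase of B cells. Il23r and Il18r1 encode receptor chains for interleukin-23 and interleukin-18, and both are found on more than 1 of these lineages. The delta locus lies inside the alpha locus, and alpha rearrangement removes it from the chromosome.

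By GENCODE M21 on GRCm38, Zbtb16 lies at chr9:48654297-48836222 (minus strand), Sox13 at chr1:133382303-133424377 (minus strand), Il23r at chr6:67422932-67491855 (minus strand) and Il18r1 at chr1:40465552-40500854 (plus strand). Scart2, listed there under its older symbol 5830411N06Rik, lies at chr7:140247284-140300736 (plus strand), Trdc at chr14:54142851-54148868 (plus strand) and Blk at chr14:63372836-63417037 (minus strand). Trdc is annotated as a receptor constant gene and the 6 others as protein coding. Scart1 and Scart2 are related genes, and reads from shared sequence could have been counted for either.

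RefSeq promoter entries on GRCm38.p6 were matched for 4 of the 7 genes. Windows of 250 bases before the start are shown for 3 of them, since Il23r and Il18r1 were highest in the same WT cluster and Scart2 in another. The last bases of the Scart2 window lie inside the gene by GENCODE, and the Sox13 window reaches further into its annotated gene and is not shown. Capitals mark AGGTCA or its reverse complement TGACCT, a half-site of nuclear receptors. The Il23r window is chr6:67491856-67492105 (minus strand), that of Scart2 chr7:140247051-140247300 (plus strand) and that of Il18r1 chr1:40465302-40465551 (plus strand).
Il23r: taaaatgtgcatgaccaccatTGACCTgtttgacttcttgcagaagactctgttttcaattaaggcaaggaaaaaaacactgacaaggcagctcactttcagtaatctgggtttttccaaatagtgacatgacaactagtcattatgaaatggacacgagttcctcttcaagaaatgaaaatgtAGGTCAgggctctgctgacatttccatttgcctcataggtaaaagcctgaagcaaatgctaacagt
Scart2: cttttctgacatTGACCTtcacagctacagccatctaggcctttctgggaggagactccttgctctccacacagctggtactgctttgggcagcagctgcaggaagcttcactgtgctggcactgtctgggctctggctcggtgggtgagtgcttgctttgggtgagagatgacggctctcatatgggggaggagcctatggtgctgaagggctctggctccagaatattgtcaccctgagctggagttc
Il18r1: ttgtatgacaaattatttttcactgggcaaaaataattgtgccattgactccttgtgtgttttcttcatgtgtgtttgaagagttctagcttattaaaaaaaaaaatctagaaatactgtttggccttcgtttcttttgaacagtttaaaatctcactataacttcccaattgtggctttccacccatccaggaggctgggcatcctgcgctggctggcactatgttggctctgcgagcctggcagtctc
The Il23r window held 2 matches, 1 on each strand, the Scart2 window 1, and those of Il18r1 and Sox13 none. On either strand, AGGTCA occurred in 14.02% of 32851 promoter windows of this length, AACAAT, a motif of Sox factors, in 9.42% and GATAAG, a motif of GATA factors, in 6.55%. Neither of the latter occurred in the 4 windows. These matches are letters in a window and were not tested as sites.

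After quality control the 4 thymic WT samples held 3964 to 14186 cells each and 39369 in all, with 21022760 to 84292900 UMIs per sample and median depths of 2912 to 3900 UMIs per cell. The 4 Mini samples held 4280 to 5222 cells and 19273 in all, with medians of 2306 to 3078.5 UMIs. The 16 other samples held 81396 cells, with medians of 1525 to 7291 UMIs. Parse sample 1 stood apart in its B cells, since cells in B-like clusters made up 6.48% of it against 0.743% to 1.71% in the 3 other WT thymic samples. Of 103602 barcode combinations in the WT kit, 19867 occurred in more than 1 sublibrary and covered 34.9% of its cells, and in the Mini kit 1360 of 18725 covered 13.5%. The kits shared 3012 combinations, and no combination occurred more than once within a sublibrary.

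Levels are given as counts per 1000000 UMIs outside ribosomal RNA (CPM), from counts summed over the cells of a sample, and are compared between samples and not between genes. Zbtb16 stood at 22.2, 18.9, 24.4 and 22.8 CPM in Parse samples 1 to 4, and at 19.9, 17.9, 16.2 and 11.05 CPM in Mini samples 1-A, 1-B, 2-A and 2-B. Mini sample 2-B was the lowest of the 8, and the kits overlapped. Sox13 stood at 6.26, 4.80, 4.50 and 6.01 CPM in the WT samples and at 8.36, 8.34, 6.43 and 8.89 CPM in the Mini samples, so that every Mini sample lay above every WT sample. Since the kits were run on other mice, that gap has no check against the spread between mice. With each cell thinned to 1000 UMIs, the shares of cells with Sox13 overlapped, at 0.343% to 0.397% in WT and 0.262% to 0.463% in Mini.

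Among the cytokine receptor genes, Il23r was sparse, with 35, 117, 144 and 172 UMIs in the WT samples and 59, 28, 56 and 9 in the Mini samples. These counts amounted to 2.01, 2.76, 4.10 and 2.60 CPM and to 3.22, 1.599, 3.05 and 0.473 CPM. The 9 UMIs of Mini sample 2-B set its Il23r level below those of the 7 other thymic samples. Il18r1 stood at 13.3, 17.5, 16.9 and 15.1 CPM in the WT samples and at 16.1, 12.7, 14.5 and 12.2 CPM in the Mini samples, without separation of the kits.

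Scart2, the scavenger receptor gene, lay close together in the WT samples, at 14.7, 14.3, 16.5 and 15.2 CPM, and further apart in the Mini samples, at 15.5, 25.1, 14.6 and 19.6 CPM. Trdc, the delta constant region, stood at 48.6, 55.6, 59.8 and 51.1 CPM in the WT samples and at 59.1, 57.2, 59.2 and 53.8 CPM in the Mini samples, so that the kits overlapped. Blk stood at 27.3 CPM in Parse sample 1 and at 12.5, 11.6 and 11.4 CPM in the 3 others, while the Mini samples lay at 7.16, 8.45, 8.82 and 8.05 CPM, below all 4 WT samples. The high Blk level coincided with the B cells of Parse sample 1, in which the summed level of B cell markers was 292 CPM against 160 to 186 CPM in the other WT thymic samples. The part of these cells in the Blk level was not tested.

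**Figure D1:**
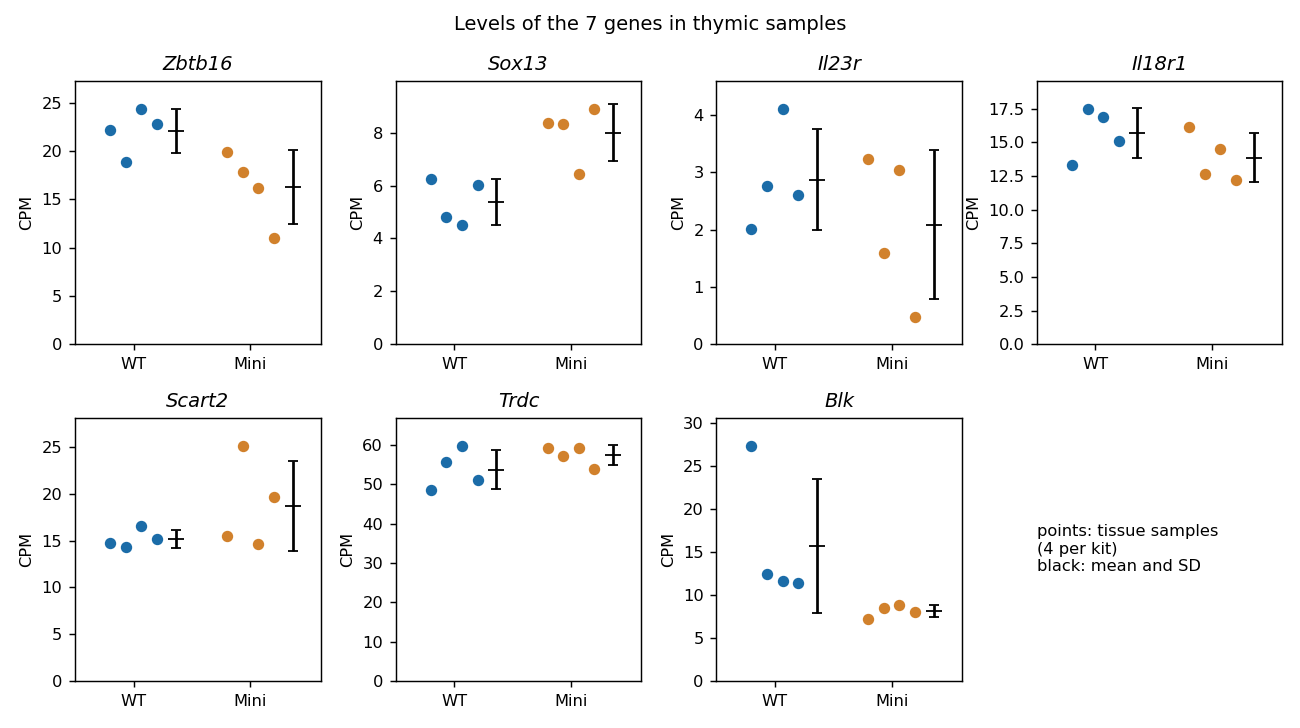
Levels (CPM, linear axis from 0) of the 7 genes in the 4 thymic samples of the Parse WT kit (blue) and the 4 of the Parse Mini kit (orange), with mean and SD in black. Blk in Parse sample 1, at 27.3 CPM, stands above all other thymic samples, and neither the Sox13 nor the Blk values of the kits overlap.

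As means over 4 samples, the WT and Mini kits gave 22.1 ± 2.29 and 16.3 ± 3.80 CPM for Zbtb16, 5.39 ± 0.875 and 8.00 ± 1.08 for Sox13, and 2.87 ± 0.883 and 2.09 ± 1.30 for Il23r (SD, n = 4 each). Il18r1 averaged 15.7 ± 1.87 and 13.9 ± 1.79 CPM, Scart2 15.2 ± 0.959 and 18.7 ± 4.80, Trdc 53.7 ± 4.94 and 57.4 ± 2.54, and Blk 15.7 ± 7.77 and 8.12 ± 0.714. For Il23r, Il18r1, Scart2, Trdc and Blk the kits differed by no more than the larger of both SDs, for Blk with an SD raised by Parse sample 1.

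Most thymocytes held none of the 7 genes. Exactly 1 member was found in 16.8% of the 39369 WT cells and none in 79.6%, and these cells had median depths of 7963.5 and 2661 UMIs. Trdc was found in 5396 WT cells, Blk in 1506, Il18r1 in 1142, Scart2 in 687, Zbtb16 in 679, Sox13 in 496 and Il23r in 143. In the Mini kit these numbers were 2446, 298, 410, 318, 225, 208 and 50 of 19273 cells. With each cell thinned to 1000 UMIs, and shallower cells left out, Trdc was found in 3.91% ± 0.571 of WT and 3.91% ± 0.422 of Mini cells (SD, n = 4 each), Zbtb16 in 0.845% ± 0.195 and 0.625% ± 0.227, and Il23r in 0.173% ± 0.0482 and 0.129% ± 0.0691. Without thinning, the Trdc shares were 11.3% to 14.9% in the WT and 12.1% to 13.02% in the Mini samples.

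A share of cells with a UMI also counts free RNA. Trdc was found in 7.12% of the 688 WT cells in B-like clusters (median 1979.5 UMIs, 30.5 CPM) and in 2.89% of the 14760 WT cells in clusters like resting double-positive (DP) thymocytes (median 1834 UMIs, 19.2 CPM), and B cells should lack it. Zbtb16 was found in 1.31% and 0.339% of the same cells, Sox13 in 0.872% and 0.102%, and Il23r in 1 B-like cell and in 0.0745% of the resting DP-like cells. Blk averaged 7.41 ± 1.33 CPM in resting DP-like cells of WT and 0.726 ± 0.473 CPM in those of Mini (SD, n = 4 each). The 16 other samples in the WT kit held Blk at 151 to 692 CPM. The part of free RNA in the WT levels and pairs of Blk was not tested. A Trdc UMI alone was therefore not read as a mark of a gamma-delta cell, and genes found together in a cell were examined instead.

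For each of the 21 pairs, the number of cells with both genes was set against the number expected if the genes were detected independently within a tissue sample and a UMI decile, and the ratio of both is given. Doublets, barcodes that hold several cells, were not removed, and their part in these numbers was not tested. In thymocytes Zbtb16, Il23r and Il18r1 shared cells with each other more than with Sox13. Of 143 WT cells with Il23r, 70 also held Zbtb16 against 4.12 expected, a ratio of 17.01 (15.1 to 19.8 over the 4 samples), and in the Mini kit 20 of 50 did, a ratio of 21.1 (18.2 to 24.2). Thus close to every other Il23r-positive thymocyte carried the PLZF transcript. Zbtb16 and Il18r1 met in 278 WT cells, 8.84 times the expected number (7.57 to 12.3), and in 104 Mini cells, 12.9 times (10.7 to 15.1). Il23r and Il18r1 met in 83 WT cells, 12.8 times the expected number (7.15 to 15.9), and in 23 Mini cells, 14.6 times (11.4 to 19.1).

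A second set was Sox13, Scart2 and Blk, with Trdc. Sox13 and Scart2 met in 133 WT cells, 6.66 times the expected number (6.07 to 8.37), and in 68 Mini cells, 7.47 times (4.30 to 9.12). The ratio of this pair was 14.7 and 16.6 in cells under 10000 UMIs and 15.0 and 19.8 with expected numbers within samples only. With 2 or more UMIs of each gene it was 22.0 in Mini, and in WT 65 cells held both against 3.82 expected. Sox13 and Blk met in 138 WT and 65 Mini cells, with ratios of 4.18 (3.19 to 5.44) and 8.39 (7.26 to 9.61). For Scart2 and Blk the ratios were 3.72 (3.33 to 3.94) in 165 WT cells and 6.41 (5.07 to 9.75) in 77 Mini cells. The factor, the scavenger receptor and the kinase thus shared cells in all 8 thymic samples.

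Among cells of the same sample and depth, Trdc was found with this set more often than with the first. Of 496 WT cells with Sox13, 51.6% held Trdc, 1.71 times the expected number (1.61 to 1.94), and of 208 Mini cells 48.1%, 1.58 times (1.39 to 1.80). For Scart2 the ratios with Trdc were 1.56 (1.496 to 1.99) and 1.67 (1.48 to 1.83), with 45.6% and 50.6% of the Scart2 cells. Blk, the third gene of the set, had ratios with Trdc of 1.16 to 1.33 over the WT samples and 1.32 to 1.74 over the Mini samples. In contrast, Zbtb16 and Trdc met in 0.913 times the expected number of cells in WT (0.826 to 1.08) and 0.863 times in Mini (0.736 to 1.18), and Il18r1 and Trdc 0.840 (0.570 to 0.984) and 0.855 times (0.740 to 1.17). Il23r and Trdc met in 29 WT and 6 Mini cells, 0.833 and 0.598 times the expected number. Pooled over samples, the delta constant transcript was thus no more frequent in thymocytes with Zbtb16, Il18r1 or Il23r than in cells of the same sample and depth, although single samples reached ratios up to 1.31. With expected numbers taken within samples and not within depth, the ratios with Trdc rose above 1 for Zbtb16, at 1.68 in WT and 1.67 in Mini, for Il18r1, at 1.45 and 1.55, and for Il23r in WT, at 1.47 (0.939 in Mini), and were 3.72 and 3.79 for Sox13 and 3.29 and 3.98 for Scart2.

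The sets were not separate, and pairs across them covered a wide range. Zbtb16 and Sox13 met in 28 WT and 12 Mini cells (ratios 1.67 and 2.36), and Sox13 and Il18r1 in 36 and 16 (1.38 and 1.87). Sox13 met Il23r at ratios of 3.51 in WT and 5.65 in Mini, on 12 and 5 cells. For Scart2 the ratios were 2.68 and 2.84 with Zbtb16 and 2.74 and 2.49 with Il18r1, and for Blk 2.28 and 3.19 with Zbtb16 and 2.04 and 2.93 with Il18r1. Blk met Il23r in 61 of 143 WT cells, 7.52 times the expected number (2.50 to 8.74), and in 14 of 50 Mini cells, 11.4 times (3.25 to 21.9), above each ratio among Sox13, Scart2 and Blk in both kits. Scart2 and Il23r met in 26 WT and 6 Mini cells, with ratios of 5.64 and 4.58, the first above the WT ratios of Blk with Sox13 and with Scart2, and none of the WT cells came from Parse sample 1. The expected counts of Il23r pairs were below 10 cells, except with Trdc, so their ratios rest on few cells.

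Of the 21 pairs, 13 in WT and 14 in Mini reached a ratio of 2. Over 14633 genes found in at least 100 WT thymocytes, the share that reached this ratio was 5.04% for Zbtb16, 2.77% for Sox13, 8.62% for Il23r, 3.08% for Il18r1, 1.61% for Scart2 and 2.07% for Blk, against 4, 3, 5, 4, 5 and 5 of the 6 other members. In Mini these shares were 4.21%, 2.92%, 8.78%, 3.17%, 2.26% and 3.76%, against 5, 4, 5, 4, 5 and 5 of 6. No gene reached it with Trdc (0% in both kits), where the highest ratio in WT was 1.90, that of the delta variable gene Trdv5. With Trdc in 5396 WT cells, its expected numbers were large. Its ratios thus had a lower ceiling and are not on the scale of those of rarer members. The median gene had ratios between 0.978 and 1.03 in WT. As the members were chosen as leading genes of 1 group of cells, these counts describe the choice.

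**Figure D2:**
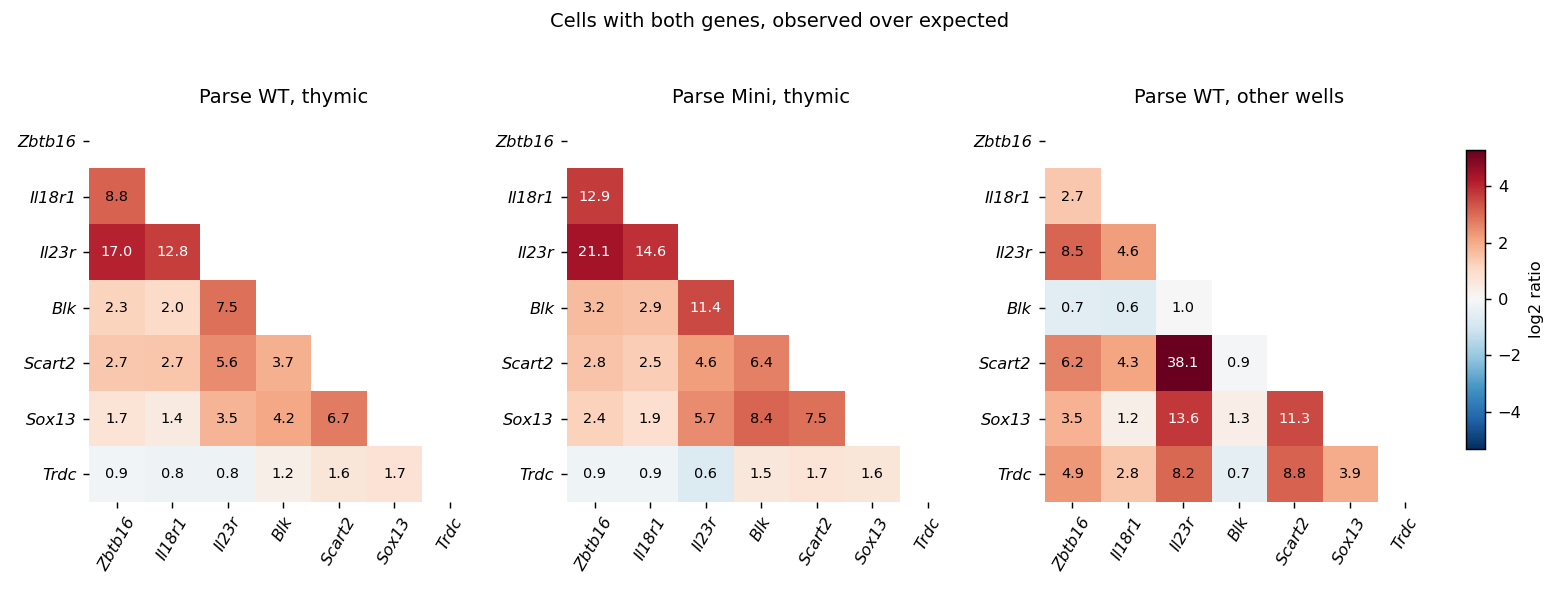
Observed over expected number of cells with both genes for each pair, in thymic WT cells (left), thymic Mini cells (middle) and the other WT wells (right), with the ratio printed and coloured on a log2 scale. Zbtb16, Il18r1 and Il23r form a dark block in both thymic panels with Trdc below 1 against each of them, and in the other wells Il23r and Scart2 reach 38.1.

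Clusters were made from variable genes without the 7 members. In the WT thymocytes, Zbtb16, Il23r and Il18r1 were highest in cluster 14, 581 cells that raised 10 markers of innate-like T cells, and Scart2, Sox13, Trdc and Blk in cluster 20, 68 cells without a name, among clusters of at least 50 cells. In WT this separation was lost with 15 principal components, where 1 cluster of 599 innate-like cells held the highest level of Sox13 and Scart2 as well as of Zbtb16, Il23r and Il18r1. Trdc was then highest in a cycling-like cluster and Blk in a B-like cluster. Cluster 14 held 73.2% of all Zbtb16 UMIs, 79.9% of the Il23r UMIs and 57.1% of the Il18r1 UMIs of the WT thymocytes. Its Zbtb16 level was 1396, 694, 699 and 665 CPM in Parse samples 1 to 4, on 39, 161, 153 and 228 cells. In it, Il18r1 stood at 608, 418, 436 and 364 CPM and Il23r at 116, 112, 138 and 81.2 CPM. Trdc, at 49.6 CPM over the cluster, was lower there than in the cycling clusters, at 66.1 to 134 CPM, and Sox13 reached 12.9 CPM. Scart2 and Blk were also present in cluster 14, at 75.1 and 56.6 CPM over the cluster and in 10.5% and 13.3% of its cells, so that the clusters did not separate the sets fully. Scart2 stood there at 4.28, 73.0, 129 and 57.5 CPM and Blk at 137, 47.5, 70.2 and 42.5 CPM in Parse samples 1 to 4.

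Cluster 20 made up 0.20%, 0.18%, 0.16% and 0.17% of Parse samples 1 to 4, with 8, 21, 15 and 24 cells. Scart2 stood at 1515, 1505, 2142 and 1251 CPM in it, Sox13 at 523, 415, 556 and 492 CPM, Blk at 590, 605, 572 and 419 CPM and Trdc at 375, 344, 425 and 268 CPM. All 4 samples thus held the 4 genes far above their levels over all thymocytes. Il23r was found with 1 UMI in the whole cluster, at 2.79 CPM, and Zbtb16 stood at 27.9 CPM. Its other leading genes, named after their values were seen, included Etv5, an ETS factor, Scart1, Maf, Sox5 and Il1r1, the interleukin-1 receptor.

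Genes of the Sox13 set were also found in immature cells. In the WT cluster like double-negative (DN) thymocytes, 1275 cells, Scart2 stood at 40.6 CPM, Trdc at 76.0, Blk at 18.2 and Sox13 at 17.1 CPM, whereas Il23r was at 0.401 CPM. In the Mini DN-like cluster of 487 cells the levels were 70.4, 82.5, 25.1 and 15.5 CPM with no Il23r UMI in 487 cells, which allows a share of cells with a UMI of up to 0.616% and sets no limit on cells that express it. Cluster 20 held 20.3% of the Sox13 and 22.2% of the Scart2 UMIs but 1.4% of the Trdc UMIs, the rest of which were spread over cycling, DN-like and other cells. Blk in WT B-like cells stood at 222 CPM and was found in 40.8% of them.

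In the Mini thymocytes Zbtb16 was highest in 2 unnamed clusters that differed in Il23r, while 117 of the 225 cells with Zbtb16 lay outside clusters 15, 17 and 19. With 15 principal components these 2 clusters were not separate, and 1 innate-like cluster of 201 cells led all of Zbtb16, Il23r and Il18r1. Cluster 15, 136 cells led by Styk1, Zbtb16, Il18rap, Il18r1 and the NK receptor gene Klrk1, held Zbtb16 at 326, 368, 675 and 728 CPM in samples 1-A to 2-B and Il23r at 13.2, 0, 0 and 13.1 CPM. Cluster 19, 107 cells led by Il18r1, Il23r, Frmd5 and Zbtb16, held Il23r at 585, 154, 438 and 10.0 CPM and Il18r1 at 884, 853, 797 and 693 CPM. Of its 107 cells, 70 held Il18r1, but only 21 held Il23r and 20 Zbtb16, with both in 14. Over the cluster, Ccr6, a chemokine receptor gene of interleukin-17 producing cells, gave 59 UMIs (147 CPM) in cluster 19 and 1 UMI in cluster 15, while Klrb1c, the gene of NK1.1, gave 2 and 67 UMIs. Both are single genes of the longer lists used below. The other list genes are not given for these clusters, so these 2 do not name them. Mini sample 2-B, with 20 cells of cluster 19, thus carried little Il23r in either cluster. Cluster 17, 119 cells led by Sox5, Sox13 and Scart2, held Sox13 at 285, 313, 178 and 521 CPM, Scart2 at 300, 708, 249 and 806 CPM and Il23r at 1.25 CPM over the cluster. Of its 119 cells, 29 held Sox13 and 32 Scart2, 27 of them both, so that a minority of its cells carried these levels.

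**Figure D3:**
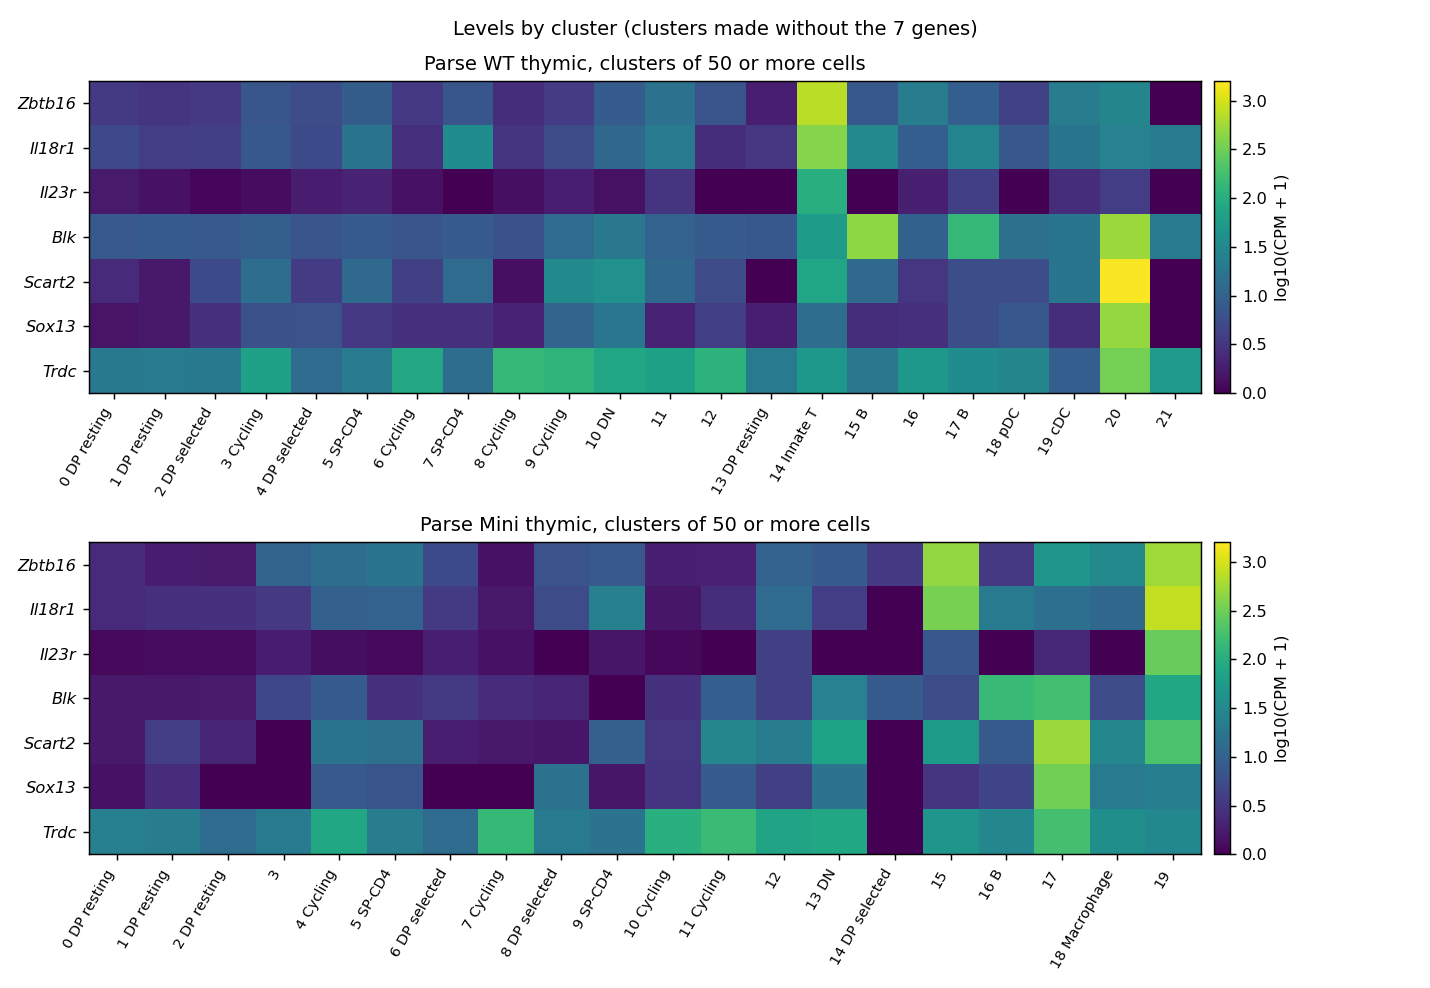
Levels of the 7 genes, as log10(CPM + 1), in clusters of at least 50 thymocytes of the WT kit (top) and the Mini kit (bottom), with the clusters made without these genes and labelled by number and, where named, by class. WT cluster 14 is bright for Zbtb16, Il18r1 and Il23r and cluster 20 for Scart2, Sox13, Blk and Trdc. In the Mini kit clusters 15 and 19 share Zbtb16 while 19 is highest in Il23r, which 21 of its 107 cells held.

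Single cells were then sorted by rule, and the name of a pattern stands for its rule and not for a cell type. A cell had the gamma-delta 17 pattern with at least 2 of Trdc, Sox13, Blk, Scart2 and Il23r and at most 1 Zbtb16 UMI, the Zbtb16 pattern with at least 2 Zbtb16 UMIs and at most 1 of the 5, and the joint pattern with at least 2 Zbtb16 UMIs and 2 or more of the 5. The gamma-delta 17 pattern was found in 1.84%, 2.00%, 1.90% and 2.54% of Parse samples 1 to 4 and in 1.69%, 1.43%, 1.71% and 1.54% of the Mini samples. The Zbtb16 pattern was found in 0.378%, 0.660%, 0.659% and 0.768% of the WT and in 0.632%, 0.678%, 0.497% and 0.338% of the Mini samples. The joint pattern was rarest in each of the 8 samples, at 0.101%, 0.137%, 0.293% and 0.204% in WT and at 0.115%, 0.0467%, 0.179% and 0.0633% in Mini. Its rule asks for what both other rules ask for, so this rank is largely set by the rule. It does not show that the patterns exclude each other, and the pair ratios above describe how often the genes met. As means the 3 patterns made up 2.07% ± 0.322, 0.617% ± 0.167 and 0.184% ± 0.0844 of WT cells (849, 264 and 77 cells) and 1.59% ± 0.133, 0.536% ± 0.153 and 0.101% ± 0.0595 of Mini cells (308, 103 and 20 cells; SD, n = 4 samples).

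Most cells of the gamma-delta 17 pattern were not in the clusters that the genes of the pattern led. In WT, 51.2% of its 849 cells lay in cycling clusters, 21.4% in the DN-like cluster and 6.71% in cluster 20, although 83.8% of the cells of cluster 20 met the rule. In Mini, 154 of 308 cells lay in cycling clusters, 25.3% in the DN-like cluster and 10.7% in cluster 17. Their median depth was 11597.5 to 14182 UMIs in the WT samples, against 2912 to 3900 UMIs over all cells. The parts of depth and of doublets in the pattern were not tested. No share expected from independent detection was computed for the pattern. Outside B-like clusters of WT, Trdc met Blk in 404 cells against 314 expected, Scart2 in 310 against 199 and Sox13 in 254 against 147. Pairs without Trdc lay further from their expected numbers, with Sox13 and Scart2 in 132 cells against 19.7 and Scart2 and Blk in 162 against 40.9. Of the WT cells with the Zbtb16 pattern 67.05% lay in cluster 14, and of the joint cells 81.8%. In Mini, 46.6% of the Zbtb16 pattern cells lay in cluster 15 and 11.7% in cluster 19, and of the 20 joint cells 4 and 7 did.

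Genes of lists on gamma-delta 17 cells, NKT cells and the gamma-delta receptor were then compared between the 2 patterns, on genes with at least 10 UMIs over both. Of 20 such genes of the gamma-delta 17 list in WT, 5 were higher in the gamma-delta 17 pattern and 15 in the Zbtb16 pattern, and of 24 genes of the NKT list 3 and 21. Of 20 receptor and lineage genes, 13 were higher in the gamma-delta 17 pattern and 7 in the Zbtb16 pattern. Over all 14268 genes with as many UMIs the gamma-delta 17 pattern was higher for 53.8% and the Zbtb16 pattern for 46.2%. The median log2 ratio of gamma-delta 17 over Zbtb16 pattern was -0.46, -1.38 and 0.19 for the 3 lists and 0.03 over all genes. In Mini the counts were 7 and 10 of 17, 6 and 15 of 21, and 11 and 7 of 18, against 54.8% and 45.2% of 11756 genes. In the other wells they were 5 and 16 of 21, 3 and 24 of 27, and 4 and 13 of 17, against 44.8% and 55.2% of 15318 genes. There the gamma-delta 17 pattern lay partly in B-like clusters and is no measure of T cells.

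More of the counted genes of the gamma-delta 17 list were thus higher in the cells with Zbtb16, without a test. Most thymocytes of the gamma-delta 17 pattern lay in cycling or DN-like clusters. The values therefore do not compare gamma-delta 17 cells with Zbtb16 cells. Maf, a factor of interleukin-17 producing gamma-delta cells, was at 48.1 CPM in the gamma-delta 17 and 89.5 CPM in the Zbtb16 pattern of WT, in this direction in 4 of 4 samples, and at 41.9 and 75.7 CPM in Mini, in this direction in 3 of 4 samples. Lgals3, the galectin-3 gene, was at 0.957 and 18.3 CPM in WT and at 0.63 and 17.7 CPM in Mini. Il17a itself gave 2 and 1 UMIs in WT and 0 and 2 in Mini, so that this cytokine was not measurable in either pattern. Il17f, a related cytokine gene named after its values were seen and below 10 UMIs, gave 8 UMIs in the gamma-delta 17 and 0 in the Zbtb16 pattern of WT and 6 and 0 in Mini, in 3 samples of each kit.

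Higher in the gamma-delta 17 pattern were Etv5, at 52.9 against 8.44 CPM in WT and 96.1 against 5.05 CPM in Mini, in 4 of 4 samples of each kit, and the gamma constant gene Trgc2, at 41.6 against 11.7 and 70.6 against 30.3 CPM, likewise in all 8. Gzma, a granzyme gene, was at 36.4 against 12.2 and 28.4 against 5.05 CPM, in 3 of 4 WT and 4 of 4 Mini samples. The delta variable gene Trdv2-2 was at 6.70 against 2.81 and 10.4 against 5.05 CPM, in 4 of 4 and 3 of 4 samples. Trdv5, another delta variable gene, gave 33 UMIs in the gamma-delta 17 and 0 in the Zbtb16 pattern of WT, and 6 and 0 in Mini. Trdc itself was among the genes that chose these cells. In the other wells 3 of these genes went the other way, with Etv5 at 8.82 against 10.7, Trgc2 at 1.73 against 14.8 and Gzma at 21.3 against 52.0 CPM. Trdv2-2 and Trdv5 kept the direction there, on 6 and 3 and on 2 and 1 UMIs.

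Among NKT genes Il4 stood out, with 1 UMI in the 849 gamma-delta 17 pattern cells and 103 UMIs in the 264 Zbtb16 pattern cells of WT, 0.12 and 48.3 CPM, and with 0 and 17 UMIs in Mini. Klrb1c gave 1 and 27 UMIs in WT and 2 and 17 in Mini, and Cxcr3, a chemokine receptor gene of type 1 cells, 2 and 8 and 1 and 6. Il2rb, the interleukin-2 receptor beta chain, was at 9.45 and 137 CPM in WT and at 7.88 and 170 CPM in Mini, in this direction in all 8 samples. Tbx21, which encodes T-bet, was at 1.20 and 15.5 CPM in WT, and Ifng gave 4 and 5 UMIs. As a group, the Zbtb16 cells thus held Il4 and Tbx21 together with Maf, which was not examined cell by cell.

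**Figure D4:**
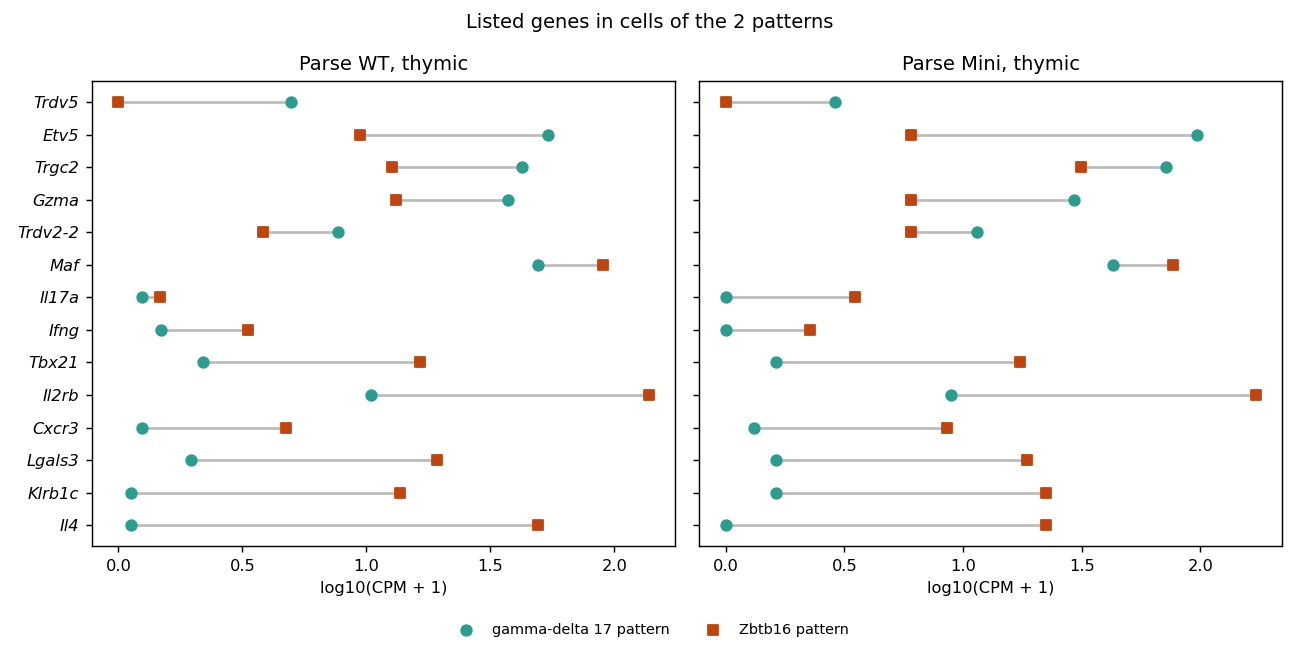
Levels, as log10(CPM + 1), of the named list genes in thymocytes of the gamma-delta 17 pattern (green circles) and the Zbtb16 pattern (red squares), for the WT kit (left) and the Mini kit (right). Etv5 and Trgc2 lie to the right for the gamma-delta 17 pattern, and Il4, Klrb1c and Il2rb for the Zbtb16 pattern.

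The genes whose detection was most like that of each member were sought among 8278 to 14632 genes with at least 100 WT thymocytes and at least 10 cells with both. For Zbtb16 they were Trpm6, a channel gene (ratio 18.96, 113 of its 194 cells), Il23r, Klrb1c (14.3), Samd3 (13.2) and 1700113H08Rik (11.3), with ratios of 16.7 to 24.99 in Mini. Il18r1 had Klrb1c (15.6), Il23r, Samd3 (11.3), Trpm6 (10.9) and Styk1 (10.6), with 11.99 to 19.03 in Mini. Il23r had Cdh10, a cadherin gene (44.9), 1700113H08Rik (43.1), Mmp25 (39.4), Pxdc1 (32.8) and Sdc1, the syndecan-1 gene (32.1), with 30.1 to 73.1 in Mini on 4 to 11 cells. Zbtb16 and Il18r1 thus shared 4 of 5 neighbours, counting Il23r.

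Sox13 had Cpa3, a carboxypeptidase gene (8.0), Il1r1 (7.7), Scart2, Rab27b (6.5) and Galnt3 (5.8), with 7.5 to 13.3 in Mini. Scart2 had Sox13, Scart1 (6.2), Il1r1 (5.8), Hlf (5.7) and Cpa3 (5.7), with 3.9 to 8.1. Trdc had Trdv5 (1.9), Cpa3 (1.8), Gm43434 (1.8), Sox13 and Gm30275 (1.7), with 1.6 to 2.0, so that Sox13 was among the 5 genes most like Trdc while Zbtb16 was not. Blk had Il23r, 1700113H08Rik (6.3), Il1r1 (5.5), Cdh10 (5.5) and Ccr6 (5.1), with 9.5 to 15.99 in Mini. Il1r1 was thus a neighbour of Sox13, Scart2 and Blk.

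The other wells of the WT kit held a different mixture of cells, in which B-like clusters made up 4.54% to 61.7% of a sample. These shares do not measure B cells. The sample named CVS_C_3 had 7.82% B-like cells and a summed level of B cell markers of 7331 CPM, and CVS_S_1 had 53.6% and 4607 CPM. Zbtb16 ranged from 5.32 to 51.5 CPM there (median 16.97), Sox13 from 0.694 to 4.48 (2.67), Il23r from 1.37 to 9.20 (2.55) and Il18r1 from 42.1 to 171 CPM (85.8). Scart2 ranged from 0.926 to 7.64 CPM (3.72) and Trdc from 0.779 to 8.76 CPM (2.64), so that none of the 16 samples reached the lowest thymic sample of either gene. Blk ranged from 151 to 692 CPM (291), above every thymic sample, and was found in 33879 of 81396 cells. Zbtb16 was at 124 CPM in monocyte-like cluster 11 and 304 CPM in cluster 9, 2551 cells led by Atp8a2, Ccl5, Zbtb16 and Cxcr6, and Il18r1 and Trdc were at 755 and 86.6 CPM in NK-like cluster 24.

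Pooled over these wells, pairs from both thymic sets were found together, with wide spread between samples. Il23r and Scart2 occurred together in 79 of 322 Il23r cells, 38.1 times the expected number (0 to 133 over the 16 samples, below 1 in 1 of them), against 5.64 in WT thymocytes, and Sox13 and Il23r in 46, 13.6 times (0 to 33.2, below 1 in 7 samples). Sox13 and Scart2 met in 11.3 times the expected number (57 cells), Scart2 and Trdc 8.82 times (40 cells), Il23r and Trdc 8.16 times (30 cells) and Zbtb16 and Trdc 4.87 times (149 cells), where WT thymocytes had 0.913 for the last. The ratio was below 1 in 7 samples for Sox13 with Scart2, whose median was 1.48, in 5 for Scart2 with Trdc, in 7 for Il23r with Trdc and in 2 for Zbtb16 with Trdc. The expected number reached 1 cell in 6 of the 16 samples for Zbtb16 with Trdc and in 0 or 1 for the other 5 pairs. The wells hold more cell types than a thymus, and the part of that mixture in the ratios was not tested. Trdc was found in 0.936% of these cells and in 13.7% of WT thymocytes, so the sizes of its ratios are not on 1 scale. Among the named classes Blk was highest in B-like cells, at a median of 610 CPM over the 16 samples. Medians in other classes included 345 CPM in cycling-like, 281 CPM in T-like and 239 CPM in neutrophil-like cells. Of the 33879 cells with Blk, 15817 lay outside B-like clusters. In the unnamed clusters Blk ranged from 37.4 to 780 CPM over the samples, so these cells were not read as cells other than B cells. The parts of B cells in unnamed clusters and of free B cell RNA were not tested. The ratios of Blk with the 6 other genes were 0.638 to 1.28, with 503 of 664 Sox13 cells holding Blk. The gamma-delta 17 pattern, found in 0.255% to 2.59% of a sample (median 0.876%), lay in B-like clusters for 32.5% of its 867 cells and is no measure of T cells here. The Zbtb16 pattern ranged from 0.0826% to 2.09% (median 1.23%) and the joint pattern from 0% to 0.441% (median 0.0663%).

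At least 6 members were found in 8 of 39369 WT thymocytes, 2 with all 7, in 2 of 19273 Mini thymocytes and in 42 of 81396 cells of the other wells, 13 with all 7. Of these 42 cells, 19 came from the sample named YD_C_3, and leaving it out gave 23 of 73679 cells, an alternative chosen after seeing the data. The 4 other samples named YD_C held 2 to 7 such cells each and the 11 samples named CVS 0 to 2 each. The median depth of the 42 cells was 4362 UMIs, below the 14907 UMIs of the 8 thymocytes. Of the 42 cells, 30 lay in cluster 8, led by Kcnc2, Prickle2, Ptpn13, Pard3 and Tox2, a cluster of 2962 cells that made up 1.53% to 5.39% of each sample. Of the 8 thymocytes 6 lay in cluster 14. Whether any of the cells with at least 6 members were doublets was not tested.

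At least 5 members were found in 12, 9, 26, 8 and 11 cells of the samples named YD_C_1 to YD_C_5 in the deposited tables, 11.2 to 33.7 per 10000 cells. Each of the 11 samples with names starting with CVS held 0 to 4 such cells, 0 to 6.52 per 10000. The thymic samples held 2.52 to 10.5 per 10000 in WT and 2.11 to 11.7 in Mini. Cd3e, a T cell gene, stood at 119 to 171 CPM in the samples named YD_C and at 24.4 to 73.6 CPM in those named CVS. The cells behind these shares thus differed in T cell content, and its part in the counts was not tested. The labels do not explain these sample names, and the values are given without a comparison.

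**Figure D5:**
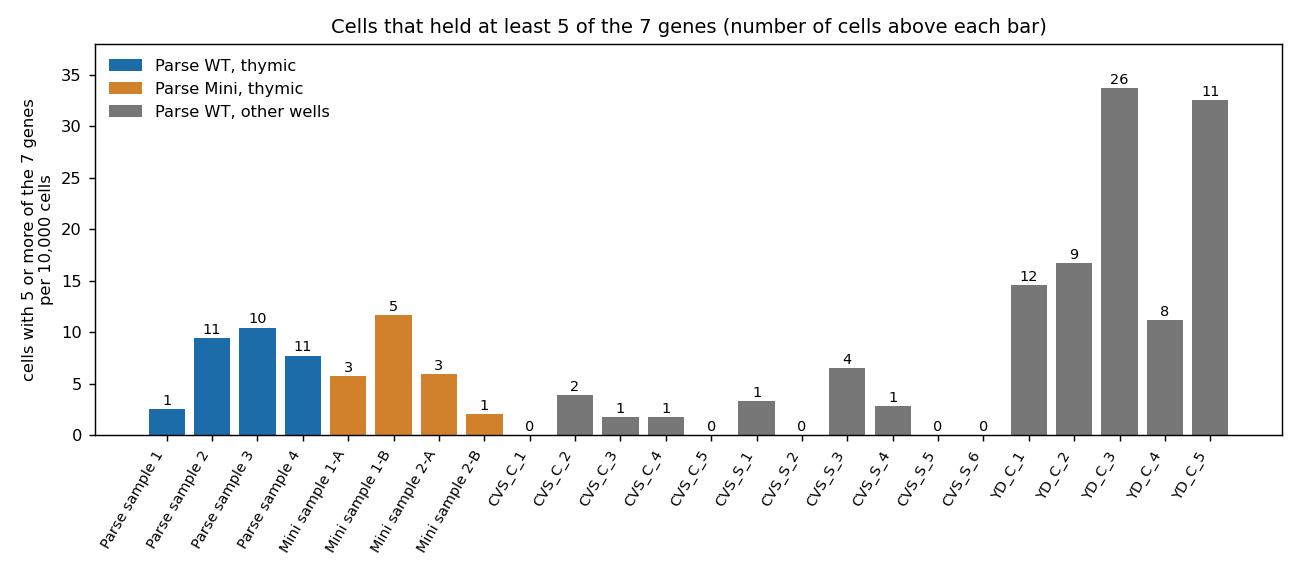
Cells with at least 5 of the 7 genes per 10000 cells of each sample (bars from 0, number of cells above each bar), for thymic WT samples (blue), thymic Mini samples (orange) and the other WT samples (grey). YD_C_3 and YD_C_5 reach 33.7 and 32.6 per 10000, while 5 of the 11 CVS samples have no such cell.

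Genes outside the 7, named after their values were seen, were read in the 42 cells with at least 6 members. They held Rora, a nuclear receptor gene, at 803 CPM, Maf at 397 CPM, Ccr6 at 356 CPM, Il1r1 at 324 CPM and Il17re, a receptor chain for interleukin-17C, at 65.6 CPM. Over all 81396 cells of these wells the levels were 39.4, 41.9, 85.0, 6.31 and 0.534 CPM. All cells of these wells include those of B-like clusters, so the levels are no comparison among T cells. These genes are single genes of the longer lists used above. The other list genes are not all given for the 42 cells, so the genes given do not assign the cells to a type. Cd3e, a chain of the T cell receptor complex, was found in 71.4% of the 42 cells against 15.2% of all cells, and Cd4 in 9.52% against 10.8%. Il17a and Il4 gave 0 UMIs, Tbx21 1 and Klrb1c 2. None of the 42 cells lay in a B-like cluster, and the part of free B cell RNA in their Blk counts was not tested.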

How the data were processed

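The authors deposited UMI counts per gene and cell, as 1 sparse matrix for the Parse WT kit, combined over 9 sublibraries, and 1 for the Parse Mini kit, over 2. By the authors' account the Parse reads were processed with split-pipe on mm10, and the release of the annotation was not given in the sources used here. Tissue samples came from the first-round wells named in the labels, and 8 columns of each deposited cell table were not used.

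Barcodes were kept between 500 and 25000 UMIs if the mitochondrial share was 15% or lower. The authors called doublets in both kits by computation and removed them from their own analysis. No doublet caller was run here, so such barcodes may be among the cells counted. An alternative took cells under 10000 UMIs. CPM left out 3 ribosomal RNA genes. Expected numbers of cells with both genes were summed over tissue samples and UMI deciles (10 per sample). Clusters used 2000 variable genes without the 7 members, 30 principal components, 15 neighbours and Leiden resolution 1. A class name needed 3 markers raised 1.5-fold with 10 UMIs, and WT cluster 23 was left unnamed by hand. Zero counts are given with a limit of 3 counts, which covers counting error only. Scripts were tested on simulated data and used pandas 2.3.3, numpy 2.4.6 and scipy 1.17.1 in Python 3.11.15, with leidenalg 0.10.2, igraph 0.11.9 and scikit-learn 1.9.0 for clusters and matplotlib 3.10.9 for figures.

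The members and gene lists were chosen with earlier results of these data known, and no test between groups was run. Dixon's criterion served only to flag single samples. Named genes were the 7 members, the 5 genes with the highest ratio to each (at least 100 cells with the gene and 10 with both), and of the lists the 5 highest and 5 lowest with Maf, Tbx21, Il17a, Il4 and Ifng. Some items are not reported here. Lists held 24, 30 and 31 symbols, of which 23, 30 and 23 were found. Of RefSeq promoter entries, that nearest to the gene start was used.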

Additional observations from a re-analysis of the deposited data

Results flagged for a closer look

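Of 42 groups of 4 thymic samples, 3 had 1 sample far from the others by Dixon's criterion at the 95% level, and chance flags about 1 in 20 groups. The flags for Blk came from the same cells and are not independent, and all 3 concerned Parse sample 1. Its Blk level was 27.3 CPM against 11.4 to 12.5 CPM in the other WT samples. With cells thinned to 1000 UMIs, Blk was found in 2.15% of its cells against 1.01% to 1.17%. The summed level of B cell markers was 292 CPM in Parse sample 1 and 160 to 186 CPM in the others, and their part in Blk was not tested. Scart2, after the same thinning, was found in 0.483% of its cells against 0.740% to 0.762%, whereas its Scart2 level of 14.7 CPM lay within the range of the other samples.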

How the results depend on the processing

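No paired analysis was possible because no test between groups was run. The shared numbers in the labels name sublibraries, and the sources used here do not say which index of a Mini sample name (1-A to 2-B) marks the mouse. With 3 or more of the 5 genes required, the gamma-delta 17 pattern fell from 2.07% to 0.463% in WT and from 1.59% to 0.450% in Mini, and the joint pattern from 0.184% to 0.0629% and from 0.101% to 0.0407%. With every deposited cell they were 3.55%, 2.56%, 0.404% and 0.213%. With Blk left out of the 5, an alternative chosen after seeing the data, the gamma-delta 17 pattern was 1.24% and 1.15%, and the joint pattern in WT 0.0970%. With 1 or more Zbtb16 UMIs the Zbtb16 pattern rose to 1.40% in WT and 1.02% in Mini, and 7 NKT genes instead of 3 were higher in the gamma-delta 17 pattern of WT, as were 5 in cells under 10000 UMIs. With 15 principal components, 4 Mini clusters instead of 2 held the highest level of a member. Sox13 and Scart2 in WT then peaked in the innate-like cluster that led Zbtb16, at 39.0 and 146 CPM instead of 491 and 1518 CPM, and in Mini in the DN-like cluster, at 113 and 252 CPM. Under this setting Trdc peaked in a cycling-like cluster, at 134 CPM in WT and 143 CPM in Mini. Blk peaked in a B-like cluster, at 788 and 148 CPM. Leaving out 1 sample gave 1.91% to 2.15% (WT) and 1.55% to 1.64% (Mini) for the gamma-delta 17, 0.566% to 0.696% and 0.489% to 0.602% for the Zbtb16 and 0.148% to 0.212% and 0.0750% to 0.119% for the joint pattern. Of 21 pairs, 9 to 18 in WT and 10 to 18 in Mini reached a ratio of 2 under the alternatives. Of the 42 thymic pair ratios, 38 were higher in cells under 10000 UMIs, 38 with 2 or more UMIs of each gene and 42 with expected numbers within samples only. Few UMIs limit Il23r, with 9 in Mini sample 2-B.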

Other observations

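Outside the clusters that held the highest levels of the members, several pairs were still found together. Among the 38720 remaining WT and 18911 remaining Mini thymocytes, Sox13 and Scart2 met in 5.27 and 5.14 times the expected number of cells, and Sox13 and Blk in 3.19 and 5.80 times. For Zbtb16 and Il18r1 the ratios were 4.32 and 8.03, and Il23r and Il18r1 met in 15 WT cells, a ratio of 7.04, and in 1 Mini cell. Outside B-like clusters, Scart2 and Blk met in 3.96 and 7.36 times the expected number.

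Il23r was also found in dendritic cells. In WT cluster 22, 46 cells like conventional dendritic cells led by Mreg and Fscn1, it gave 11 UMIs in 19.6% of the cells (32.3 CPM), and in Mini cluster 21, 29 such cells, 12 UMIs in 20.7% (67.6 CPM). In the other wells, cluster 42 held 33 cells with markers of innate-like T cells, and Il23r was found in 26 of them and Il18r1 in 30, while Trdc and Sox13 gave no UMI in the 33 cells, which allows a share of cells with a UMI of up to 9.09% and sets no limit on cells that express them.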
